A study of Homo sapiens with 60 samples.

Results

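HT29 cells, an established line grown from a human colorectal adenocarcinoma, were exposed for 24 h to water extracts of the ginger rhizome, and the comparison described here sets a medium dose of 100 µg/mL against a low dose of 20 µg/mL. Both gingers of the series entered it: Zingiberis Rhizoma Recens, called fresh ginger below, and Zingiberis Rhizoma, called ginger below. The members were chosen by their labels and by no measured value: 12 of the 60 libraries of the series, 6 at the medium dose and 6 at the low dose, with 3 libraries of each extract at each dose. All 12 were HT29 cells with no genetic change named in the labels, so the groups differed by extract and by a 5-fold step in dose. The 6 libraries of the high dose (500 µg/mL of either extract) and the 3 vehicle libraries serve only to show levels. The vehicle is labelled 0.1% DMSO, while the series text gives 2%, and its sample numbers carry another prefix than those of the gingers. The titles of the vehicle and ginger libraries all carry the label BatchA. Extracts are mixtures dosed by weight, so equal doses need not hold equal amounts of any compound. HT29 is a single tumour line. The labels do not say that the 3 libraries sharing an extract and a dose were grown apart, so p-values measure only the spread between these libraries, which may be technical.

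The pungent constituents of ginger, gingerols and their dehydration products the shogaols, are known for an electrophilic group in the shogaols that can react with cysteines of KEAP1. KEAP1 holds the transcription factor NRF2 at a low level. When its cysteines are modified, NRF2 accumulates and drives genes for glutathione synthesis, thioredoxin reduction and the aldo-keto reductases through antioxidant response elements. The aryl hydrocarbon receptor (AhR), which plant compounds can bind, drives CYP1 genes through a separate element, and NF-kB drives the chemokines that epithelial cells release toward neutrophils. Secretory cells of the colon, which HT29 resembles in part, make mucus and the proteins that fold it. Gene lists for these and other programmes, 40 in all with 663 members, were compared between the doses, and 582 members passed the filter on low counts.

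Between 20 and 100 µg/mL no gene passed the test. Of 14663 genes tested over the 12 libraries with the extract as a block, 0 (0%) had an adjusted p below 0.05 in the edgeR quasi-likelihood test with Benjamini-Hochberg adjustment. At an unadjusted p below 0.05 there were 503 genes (3.43%), 222 higher (1.51%) and 281 lower (1.92%) at the medium dose, beside the 733 that an even spread of p-values would give. With the replicate number as a block within each extract the count was 775, so its side of 733 depends on the block, while the number called was 0 in both fits. The median log2 change was 0.00 and 50.6% of genes lay above 0. The DESeq2 Wald test called 1 gene on the same libraries, AKR1B10, with 389 genes at an unadjusted p below 0.05. Without the filter on low counts the edgeR test called 84 genes, 29 higher and 55 lower, of which 33 had been below the filter. Leaving out 1 library at a time gave 359 to 1007 genes at an unadjusted p below 0.05, the 1007 without fresh ginger low replicate 2, and 1 called gene without fresh ginger low replicate 1 (ENSG00000258790, which has no symbol).

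The fitted intervals bounded most changes. The 95% interval of the change lay within 1.5-fold in either direction for 13077 genes (89.2%), within 1.25-fold for 72.8% and within 2-fold for 98.3%. Among the 10770 genes with a mean of at least 5 counts per 1e6 (CPM) at the dose with the higher mean, 99.5% were bounded within 1.5-fold. Only 7 of those 10770 had a fitted change past 1.5-fold, and none of the 7 passed the test. The bounds come from the fitted standard errors, of which the median was 0.07 on the log2 scale, and are not adjusted for the number of genes.

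**Figure D1:**
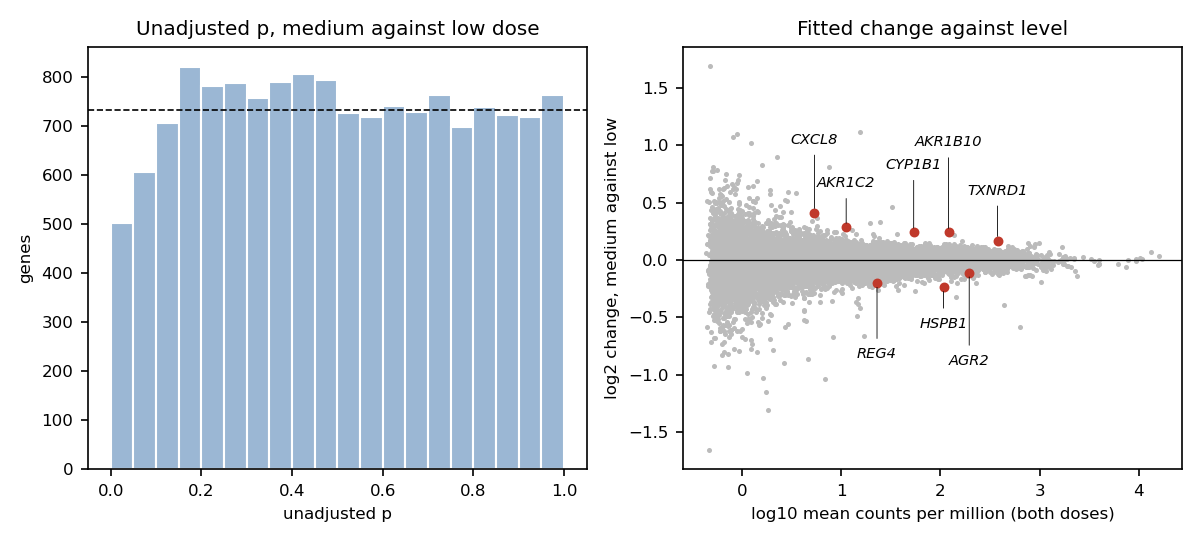
Left: number of genes (vertical axis) in each of 20 bins of unadjusted p (horizontal axis) for medium against low dose of both gingers, with a dashed line at the 733 genes a bin would hold if p-values were spread evenly. The bin nearest 0 holds 503 genes, the fewest of any bin. Right: fitted log2 change of each gene (vertical axis) against its mean level over both doses in log10 CPM (horizontal axis), with 8 genes described in the text in red.

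A small set of genes had dose groups that did not overlap. All 6 medium libraries lay above all 6 low libraries for 19 genes (0.13%), and below them for 15 genes (0.102%), together 34 genes (0.232%), of which 21 reached 5 CPM. The largest fitted change among those 21 was 0.24 on the log2 scale. The named genes below were taken by smallest p in each direction among genes of at least 5 CPM whose 2 within-extract changes had the same sign, 11 higher and 11 lower after genes without a symbol and pseudogenes were skipped, with members of the gene lists added. In the higher direction their fitted changes ran from 0.15 to 0.41, and in the lower direction from -0.30 to -0.15. They were ranked on this contrast, so their order and their same sign in both extracts are a description.

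For the genes whose response elements are well known, 250 bases before the RefSeq start (GRCh38.p14) are printed for 4 genes with the levels described below, to show which of the searched letters lie there. They are TXNRD1 (chr12:104215529-104215778, plus strand), GCLM (chr1:93909431-93909680, minus strand), CXCL8 (chr4:73740319-73740568, plus strand) and HSPB1 (chr7:76302423-76302672, plus strand). Capitals mark matches to the motifs searched, each read 5′ to 3′ on the gene's strand.
TXNRD1: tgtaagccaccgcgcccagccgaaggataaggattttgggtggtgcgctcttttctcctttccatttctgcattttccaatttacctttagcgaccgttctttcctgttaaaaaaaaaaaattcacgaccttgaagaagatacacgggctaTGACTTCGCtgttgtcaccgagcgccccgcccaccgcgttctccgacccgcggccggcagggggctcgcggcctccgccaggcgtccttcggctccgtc
GCLM: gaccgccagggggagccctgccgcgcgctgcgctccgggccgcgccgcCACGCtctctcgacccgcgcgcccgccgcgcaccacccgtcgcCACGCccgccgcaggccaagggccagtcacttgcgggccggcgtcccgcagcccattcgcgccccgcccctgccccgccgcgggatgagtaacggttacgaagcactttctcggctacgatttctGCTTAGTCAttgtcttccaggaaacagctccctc
CXCL8: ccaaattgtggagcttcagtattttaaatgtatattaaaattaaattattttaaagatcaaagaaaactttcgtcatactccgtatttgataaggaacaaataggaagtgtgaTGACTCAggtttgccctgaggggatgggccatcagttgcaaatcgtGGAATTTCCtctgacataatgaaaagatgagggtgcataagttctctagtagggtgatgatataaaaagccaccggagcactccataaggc
HSPB1: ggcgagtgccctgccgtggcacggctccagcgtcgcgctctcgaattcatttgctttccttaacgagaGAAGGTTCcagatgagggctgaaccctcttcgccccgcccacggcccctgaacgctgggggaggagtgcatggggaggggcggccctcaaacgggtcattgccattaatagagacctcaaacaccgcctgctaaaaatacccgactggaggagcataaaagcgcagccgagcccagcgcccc
The capitals in TXNRD1 are an antioxidant response element (TGACNNNGC) 99 to 91 bases before the start. In GCLM the same element lies on the opposite strand 34 to 26 bases before the start, with 2 dioxin response element cores (GCGTG, on the opposite strand as CACGC) farther out. CXCL8 holds an AP-1 element (TGANTCA) 137 to 131 bases and an NF-kB element (GGNNTTTCC) 91 to 83 bases before the start. HSPB1 holds a heat shock element (GAANNTTC) 182 to 175 bases before it. Both strands were searched, and the share of all 35116 RefSeq windows of the same length with a match was 10.9% for the antioxidant element, 5.48% for NF-kB, 6.57% for AP-1, 5.78% for heat shock and 32.2% for the dioxin core. Of the 26 NRF2 target genes 18 had a window, and 4 of these (22.2%) held the antioxidant element. Among the other named genes, the antioxidant element also lay in the windows of LINC00261, RPS15 and NDUFS6, which had negative fitted values. The windows of GCLC and AKR1C2, which had positive values, lacked it. Heat shock letters also lay in those of AKR1C2 and MKI67 (positive values) and of AGR2, HSPA1A and RPL28 (negative values). A match is a run of letters and shows no binding.

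AKR1B10, an aldo-keto reductase that reduces reactive carbonyls and a well-known NRF2 target, had the smallest p of all genes (ENSG00000198074, chromosome 7, 134527592 to 134541408, plus strand, GENCODE 29). Its level was 107 CPM in the lowest, 110 in the median and 118 in the highest of the 6 low-dose libraries. At the medium dose the lowest library had 125 CPM, the median was 130 and the highest had 140. Every medium library thus lay above every low library. The fitted log2 change was 0.24 ± 0.04 (SE), or 1.18-fold with a 95% interval from 1.11 to 1.25, with an unadjusted p of 1.85e-05 and an adjusted p of 0.272 in the edgeR test. The adjusted p was 0.000184 with DESeq2 and 0.000935 in edgeR without the filter, and ran from 0.000184 to 0.9998 over 24 alternatives, in all of which the fitted change was positive. The 2 extracts gave 0.26 (fresh ginger) and 0.21 (ginger). Vehicle libraries held 113 ± 11 CPM (SD, n = 3), near the low dose, and the high dose held 258 ± 5.0 CPM in fresh ginger and 217 ± 11 in ginger. Family members of AKR1B10 and of the AKR1C genes are close in sequence, so reads divided between copies make single members uncertain.

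Most other NRF2 targets had positive fitted values at the medium dose, none of them past the adjusted test. The list of 26 targets, all of them tested, held 7 members with an unadjusted p below 0.05 and a higher level, against 1.51% of all genes, and 0 with a lower one, against 1.92%. Of its members 22 lay above 0, against 50.6% of all genes, with a median log2 change of 0.05 against 0.00 over all genes. The 2 extracts had list medians of 0.05 (fresh ginger) and 0.07 (ginger). The summed level of the list ran from 9510 to 11705 CPM at the low and from 10480 to 11178 CPM at the medium dose. The medium range thus lay inside the low range. In vehicle the sum ran from 11196 to 12732 CPM, and at the high dose from 12801 to 13952 CPM. The list was drawn up with earlier results of these data known, among them the responses at the high dose, so its direction is a description. The counts and medians of the lists that follow read against the same values over all genes.

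TXNRD1, thioredoxin reductase 1, was the other NRF2 target with doses that did not overlap (ENSG00000198431, chromosome 12, 104215779 to 104350305). It had 308 CPM in the lowest, 365 in the median and 367 in the highest low-dose library, and 388, 396 and 416 CPM at the medium dose. The lowest value belonged to fresh ginger low replicate 1, and the other 5 low libraries lay between 363 and 367 CPM. The fitted change was 0.17 ± 0.04 (adjusted p = 0.997, edgeR), with an interval from 1.05-fold to 1.20-fold, 0.21 in fresh ginger and 0.12 in ginger.

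AKR1C2, a hydroxysteroid dehydrogenase of the same reductase family, had overlapping doses, with 8.61, 10.4 and 11.8 CPM (lowest, median and highest) at the low dose and 10.4, 12.4 and 13.9 at the medium dose. Its fitted change of 0.28 ± 0.07 had an interval from 1.09-fold to 1.35-fold (adjusted p = 0.997, edgeR). At the high dose its mean was 31.4 ± 0.91 CPM in fresh ginger and 22.3 ± 2.5 in ginger (SD, n = 3), beside 10.2 ± 1.3 in vehicle.

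The remaining members with an unadjusted p below 0.05 belong to the handling of cystine, glutathione and oxidised proteins. SLC7A11, the cystine importer, had means of 154 ± 14.4 CPM at the low and 173 ± 9.47 at the medium dose (SD, n = 6; log2 change 0.17). GCLM and GCLC, the modifier and catalytic subunits of the enzyme that starts glutathione synthesis, had fitted values of 0.12 and 0.09. GCLM ran from 57.4 to 67.6 CPM at the low dose and from 62.3 to 71.6 CPM at the medium dose, so that the groups overlapped for most of their range. SRXN1, sulfiredoxin, which restores overoxidised peroxiredoxins, had a fitted value of 0.12. Means of SLC7A11 at the high dose were 254 ± 9.8 CPM in fresh ginger and 205 ± 24 in ginger, those of GCLM 95.7 ± 7.6 and 86.9 ± 4.9.

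**Figure D2:**
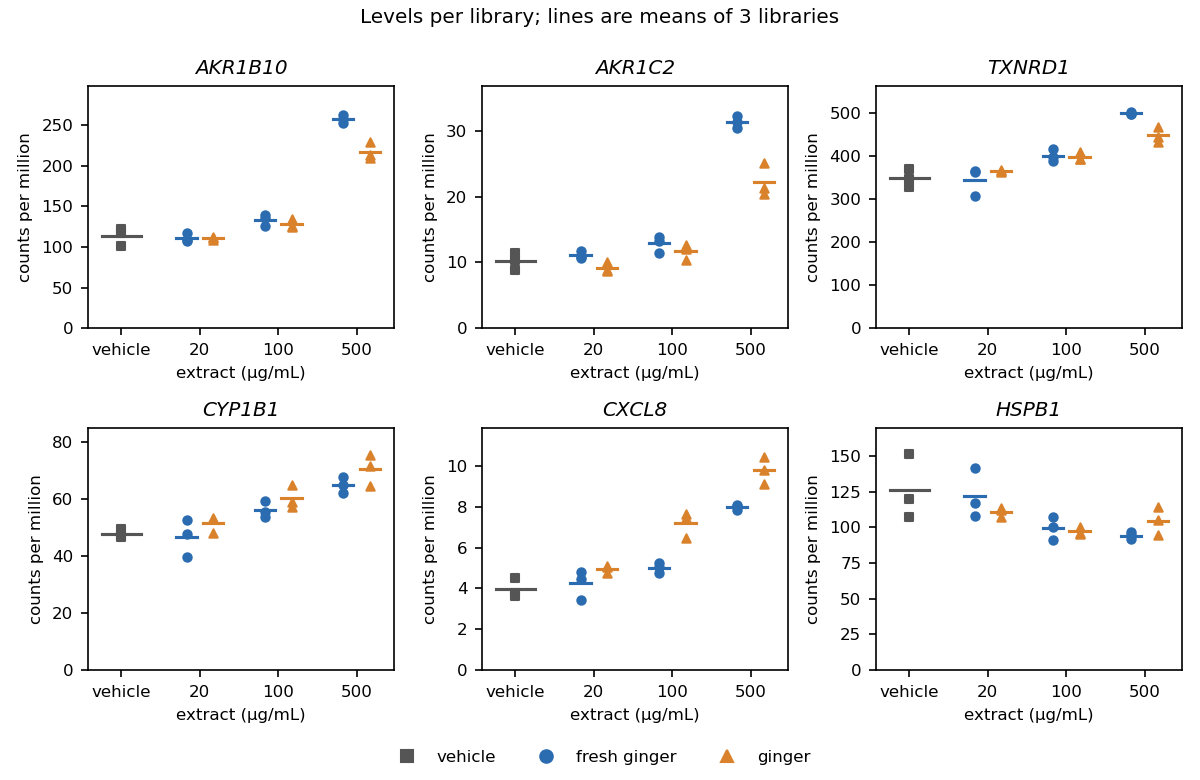
Level in CPM (vertical axes, from 0) of 6 genes in each library of vehicle and of both gingers at 20, 100 and 500 µg/mL (horizontal axes, doses evenly spaced); points are libraries and lines are means of 3 libraries. For AKR1B10 the 12 libraries at 20 and 100 µg/mL span 107 to 140 CPM, against means of 258 and 217 CPM at 500 µg/mL.

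The AhR list held 9 genes, of which 8 were tested. Of these, 4 had an unadjusted p below 0.05 and a higher level and 0 a lower one, 7 lay above 0, and the median was 0.14. CYP1B1, a cytochrome P450 that oxidises polycyclic compounds and oestrogens, had doses that did not overlap (ENSG00000138061, chromosome 2, 38066973 to 38109902, minus strand). Its low-dose libraries had 39.8, 50.4 and 53.6 CPM (lowest, median and highest) and its medium-dose libraries 53.8, 58.2 and 65.1 CPM. The highest low library and the lowest medium library were almost level. The fitted change was 0.24 ± 0.06 with an interval from 1.09-fold to 1.29-fold (adjusted p = 0.997, edgeR; 0.00294 without the filter on low counts), 0.26 in fresh ginger and 0.23 in ginger.

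ALDH3A1, an aldehyde dehydrogenase shared by the AhR and NRF2 programmes, had a fitted value of 0.16, from means of 22.4 ± 1.96 to 24.9 ± 1.33 CPM. UGT1A6, a glucuronosyltransferase, had a fitted value of 0.14, and shares its last exons with the other UGT1A genes, so that reads in those exons cannot be assigned to it alone. CYP1A1, the classical AhR target, was near the limit of detection, with means of 0.471 ± 0.103 CPM at the low and 0.695 ± 0.307 CPM at the medium dose. Its fitted value was -0.02 in fresh ginger and 1.09 in ginger, with a difference of 1.11 between them whose 95% interval ran from -0.05 to 2.27. The AhR list's median thus rested on few genes and on levels that differ widely.

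Among the 22 genes named by smallest p, CXCL8 had the largest fitted change. CXCL8 encodes the neutrophil attractant interleukin 8 (ENSG00000169429, chromosome 4, 73740506 to 73743716). It had 3.44, 4.8 and 5.08 CPM at the low dose (lowest, median and highest) and 4.75, 5.87 and 7.67 CPM at the medium dose. The doses overlapped through fresh ginger, whose medium libraries held 4.75 to 5.26 CPM, whereas the 3 ginger medium libraries (6.49, 7.46 and 7.67 CPM) were all above its low libraries (4.77, 5.04 and 5.08 CPM). The pooled change was 0.41 ± 0.09, an interval from 1.16-fold to 1.53-fold (adjusted p = 0.997, edgeR; 0.0245 without the filter). The difference between ginger (0.53) and fresh ginger (0.26) was 0.27 with an interval from -0.12 to 0.66, which includes 0. CXCL8 means at the high dose were 7.99 ± 0.12 CPM in fresh ginger and 9.79 ± 0.66 in ginger, beside 3.98 ± 0.45 in vehicle (SD, n = 3).

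The NF-kB and chemokine list of 19 genes had 13 tested, of which 4 were higher and 0 lower at an unadjusted p below 0.05, 7 lay above 0, and the median was 0.03. CXCL1, a further neutrophil attractant, had means of 1.83 ± 0.726 and 2.50 ± 1.03 CPM (fitted value 0.44), with 2.33 to 2.63 CPM in ginger and 0.982 to 1.41 CPM in fresh ginger at the low dose. BIRC3, an inhibitor of apoptosis induced by NF-kB, had means of 6.07 ± 0.561 and 7.07 ± 0.992 CPM (0.21). CCL20, which attracts dendritic cells and lymphocytes, was below 1 CPM in all 12 libraries, and its fitted value of 0.72 had an interval from 1.00-fold to 2.7-fold. CCL20 is among the 4 higher genes. The filter on low counts was set on the dose groups, so a gene this low can pass through the libraries of a single dose. The remaining tested members had an unadjusted p above 0.05.

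Secretory genes mostly had negative fitted values. The goblet and secretory cell list of 16 genes had 13 tested, with 0 higher and 3 lower at an unadjusted p below 0.05, 3 above 0 and a median of -0.13. REG4, a lectin of secretory and enteroendocrine cells, had 22.5, 24.1 and 28.8 CPM at the low dose (lowest, median and highest) and 20.4, 21.2 and 23.0 CPM at the medium dose. The doses overlapped between 22.5 and 23.0 CPM, and the fitted value was -0.20 ± 0.06 (adjusted p = 0.997, edgeR). AGR2, a protein disulfide isomerase needed for mucin folding, had means of 203 ± 6.78 and 188 ± 6.82 CPM (-0.11). CREB3L1, a membrane-bound transcription factor of the secretory pathway, had means of 184 ± 18.7 and 163 ± 11 CPM (-0.17), with fresh ginger low replicate 1 at 220 CPM. At the high dose REG4 held 15.4 ± 0.74 CPM in fresh ginger and 19.6 ± 1.6 in ginger, beside 26.3 ± 4.2 in vehicle, and AGR2 held 166 ± 4.6, 180 ± 12 and 224 ± 18 CPM.

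Interferon-induced genes also leaned to lower values. Of 24 genes listed and tested, 0 were higher and 3 lower at an unadjusted p below 0.05, 3 lay above 0, and the median was -0.09. OAS1, which senses double-stranded RNA, had means of 32.7 ± 2.11 CPM at the low and 29.5 ± 2.45 CPM at the medium dose (-0.15 ± 0.06). Vehicle libraries held 28.6 ± 2.1 CPM of OAS1, closer to the medium than to the low dose. OAS2 (-0.25) and the apoptosis-related XAF1 (-0.42, at 1.45 ± 0.236 and 1.06 ± 0.300 CPM) were the other members with an unadjusted p below 0.05.

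**Figure D3:**
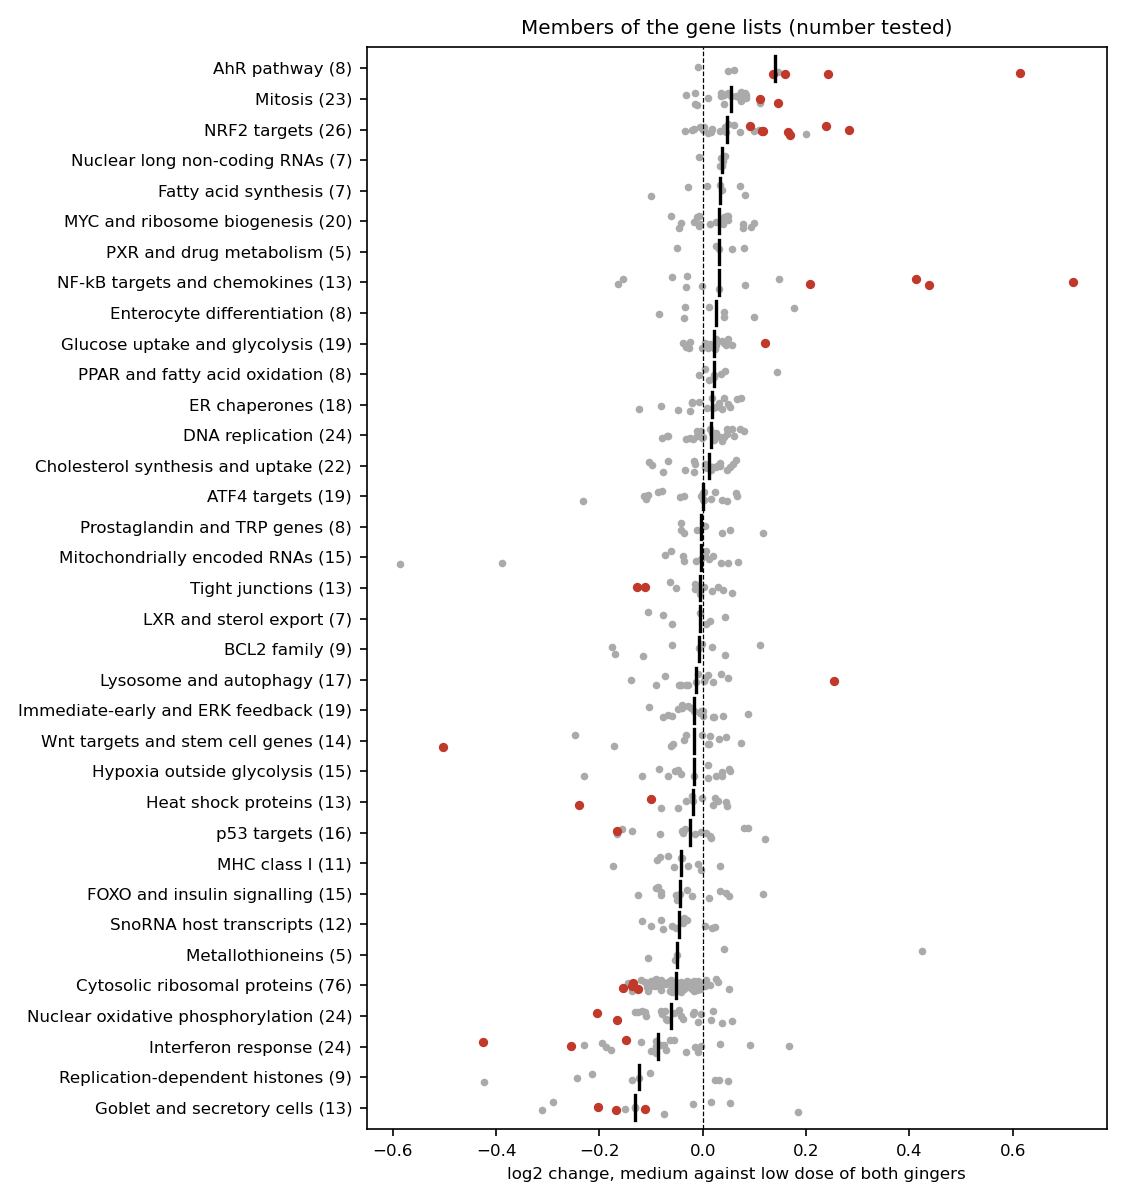
Fitted log2 change from low to medium dose of both gingers (horizontal axis) for the tested members of 35 gene lists (rows, with the number tested), excluding the lists of cell type markers; black bars are list medians and red points are members with an unadjusted p below 0.05. The AhR list has the highest median (0.14) and the goblet and secretory list the lowest (-0.13); vertical scatter within a row has no meaning.

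HSPB1, the small heat shock protein HSP27, had the smallest p among the named genes with a lower level (ENSG00000106211, chromosome 7, 76302544 to 76304295). It had 107, 113 and 142 CPM at the low dose (lowest, median and highest) and 91.3, 98.1 and 108 CPM at the medium dose. The highest value belonged to fresh ginger low replicate 1. The fitted change was -0.24 ± 0.06, an interval from 0.778-fold to 0.922-fold (adjusted p = 0.997, edgeR; 0.00314 without the filter), -0.29 in fresh ginger and -0.19 in ginger. At the high dose HSPB1 held 94.3 ± 2.1 CPM in fresh ginger and 105 ± 9.7 in ginger (SD, n = 3). The medium-dose means were 99.8 ± 8.1 and 97.3 ± 2.4 CPM, so the ginger mean was not lower at the high dose. Vehicle libraries held 126 ± 23 CPM, from 107 to 151. The other heat shock genes lay nearer 0. Of 13 listed and tested, 0 were higher and 2 lower at an unadjusted p below 0.05, 5 lay above 0 and the median was -0.02. The second was HSPA1A, the inducible HSP70 (-0.10), whose reads can be split with its near-identical copy HSPA1B.

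Mitotic genes had small positive values. Of 23 listed and tested, 2 were higher and 0 lower at an unadjusted p below 0.05, 19 lay above 0 and the median was 0.05. MKI67, the proliferation marker Ki-67, had means of 727 ± 73.5 and 804 ± 49.2 CPM (0.14), and CENPE, a kinetochore motor, 73.4 ± 2.73 and 79.3 ± 4.56 CPM (0.11). The lowest MKI67 value, 597 CPM, belonged to fresh ginger low replicate 1. DNA replication genes, the neighbouring programme, had a median of 0.02 with 0 of 24 at an unadjusted p below 0.05.

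The values of ribosomal protein genes moved with a single library. Of 76 members, all tested, 0 were higher and 4 lower at an unadjusted p below 0.05, 6 lay above 0, and the median was -0.05. The list median was -0.11 in fresh ginger and -0.01 in ginger, and -0.01 pooled when fresh ginger low replicate 1 was left out. RPS15, a protein of the small subunit and one of the 11 named lower genes, had 206, 220 and 247 CPM at the low dose (lowest, median and highest) and 189, 200 and 211 CPM at the medium dose (-0.15 ± 0.05). RPL28, of the large subunit, had a fitted value of -0.14. Nuclear genes of oxidative phosphorylation had a median of -0.06 with 0 higher and 2 lower of 24, and 0.00 without the same library. Their members NDUFS6, of complex I, and COX5B, of complex IV, had fitted values of -0.17 and -0.20. COX5B stood at 98.4 CPM in fresh ginger low replicate 1 and between 64.7 and 73.6 CPM in the other 5 low libraries.

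That library had the fewest counts of the 12, 11.6 M (M, 1e6) of a range up to 30.5 M, and lay alone at 43.2 on the first principal component (27.4% of the variance), with the other 11 between -12.0 and 7.19. Ribosomal protein genes took 6.26% of its counts and 5.02% to 5.67% of the counts of the others. Mitochondrial transcripts took 11.9% of fresh ginger medium replicate 1 and 8.45% to 8.94% of the other medium libraries. Without fresh ginger low replicate 1 the list medians were 0.06 (NRF2), 0.10 (AhR), 0.04 (NF-kB), -0.11 (goblet and secretory), -0.07 (interferon) and 0.05 (mitosis). Mean totals were 21 M counts at the medium and 18.7 M at the low dose, with p = 0.385 in a two-sided exact permutation test within extract (400 arrangements, smallest p 0.005). Genes detected gave p = 0.545 in the same exact test. Among the 12 colon epithelium markers, EPCAM (median 507 CPM), CDH1 and KRT8 were high. The medians of CDX2 (5.68 CPM), CDH17 (5.46) and GPA33 (5.10) were low, and CDX1 was near 1 CPM. CD3E, MS4A1, COL1A2, THY1, CDH5, KDR, HBB, ALB and APOA2, which mark leukocytes, fibroblasts, endothelium, blood and liver, were at 0 in all 12 libraries. Other members of these lists were detected in all 12, with medians of 341 CPM for SERPINA1 (liver), 7.67 for CD68 and 3.33 for CD14 (leukocytes), 1.80 for PECAM1 (endothelium) and 1.22 for COL1A1 (fibroblasts). The median was below 1 CPM for 6 of 8 leukocyte, 7 of 8 fibroblast, 7 of 8 endothelial and blood, and 6 of 7 liver markers. The summed level of the leukocyte list ran from 8.62 to 12.8 CPM at the low and from 9.51 to 13.7 CPM at the medium dose, that of the fibroblast list from 2.00 to 3.77 and from 2.25 to 3.57, that of the endothelial and blood list from 1.79 to 2.85 and from 2.03 to 2.78, and that of the liver list from 338 to 371 and from 326 to 360.

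Several named genes outside the lists had positive fitted values. ADGRF1, an adhesion G protein-coupled receptor, had 27.6, 34.4 and 36.1 CPM at the low dose (lowest, median and highest) and 36.9, 38.8 and 41.7 CPM at the medium dose, without overlap (0.22 ± 0.05; adjusted p = 0.997, and 0.0273 without the filter, edgeR). EDEM1, which directs misfolded glycoproteins of the endoplasmic reticulum to degradation, had 40.0 to 44.4 CPM at the low and 44.8 to 49.4 CPM at the medium dose (0.15). EMP1, an epithelial membrane protein, had 28.8 to 33.5 and 34.1 to 36.9 CPM (0.15). All 3 were parted by dose in every library, by gaps smaller than the range within a dose. EDEM1 was at 45.4 ± 2.7 CPM (fresh ginger) and 42.7 ± 3.3 CPM (ginger) at the high dose and at 42.9 ± 3.7 CPM in vehicle, so neither high-dose mean was above the medium-dose mean of 46.8 CPM. ALDH1A3, which makes retinoic acid, had a fitted value of 0.23, with 0.34 in ginger and 0.11 in fresh ginger. The zinc finger gene ZNF189 had 0.23, with a medium-dose mean of 11.3 CPM. At the high dose ZNF189 held less, 10.6 ± 0.46 and 10.1 ± 1.0 CPM in fresh ginger and ginger, beside 10.2 ± 1.3 in vehicle. The organic cation transporter SLC22A3 had 0.26. It held 10.3 ± 1.4 and 9.56 ± 0.17 CPM at the high dose of fresh ginger and ginger beside 6.25 ± 0.48 in vehicle.

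The other named genes with lower values were spread over unrelated functions and none had doses without overlap. SNHG10, a small nucleolar RNA host gene, had the largest fitted difference (-0.30 ± 0.08), from 5.90 to 7.59 CPM at the low dose and from 5.03 to 6.65 at the medium dose. At the high dose SNHG10 held 6.26 ± 0.60 CPM in fresh ginger and 6.23 ± 0.77 in ginger, above its medium-dose mean of 5.52. Vehicle libraries held 6.06 ± 0.63 CPM. NCKAP5L, a microtubule-bundling protein, had means of 28.1 ± 1.71 and 24.2 ± 1.45 CPM (-0.21). The long non-coding RNA LINC00261 had means of 18 ± 1.33 and 15.6 ± 0.752 CPM (-0.20). It held 10.9 ± 1.3 and 11.6 ± 0.70 CPM at the high dose of fresh ginger and ginger. Vehicle libraries held 16.1 ± 1.9 CPM of LINC00261, closer to the medium than to the low dose. RBBP8NL (-0.25), the collagen gene COL27A1 (-0.21) and the lysosomal enzyme gene IDUA (-0.27) were further members. HIGD2A, an assembly factor of respiratory complexes (-0.18), and HOXB8, a homeobox factor (-0.22), had their highest low-dose values in fresh ginger low replicate 1, at 73.5 and 49.2 CPM. RBBP8NL (9.93 and 10.2 CPM in fresh ginger and ginger) and HIGD2A (58.8 and 61.0) had high-dose means above their medium-dose means of 9.20 and 54.5. Those of HOXB8 (28.2 and 31.9, medium 32.8) and COL27A1 (16.5 and 17.4, medium 17.6) lay below. Those of NCKAP5L and IDUA lay below in fresh ginger and above in ginger.

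Each extract alone also gave no called gene. In fresh ginger 0 of 14663 genes (0%) passed the edgeR test, with 662 (4.51%) at an unadjusted p below 0.05, 220 higher (1.5%) and 442 lower (3.01%), and 973 with the replicate block, which also called 0. In ginger 0 genes (0%) passed, with 235 (1.6%) at an unadjusted p below 0.05, 128 higher (0.873%) and 107 lower (0.73%). Without fresh ginger low replicate 2 the fresh ginger count at an unadjusted p below 0.05 was 2678, with 1 gene called, and without low replicate 1 it was 401. The ginger count was 360 without fresh ginger low replicate 1, a library that enters the ginger test only through the shared fit. DESeq2 called 1 gene without a symbol in fresh ginger and 0 in ginger. The test of the difference between the extracts in their step from low to medium dose called 0 genes (0%) in edgeR and 0 in DESeq2, with 353 (2.41%) at an unadjusted p below 0.05 in edgeR, 222 (1.51%) with the higher step in ginger and 131 (0.893%) with the higher step in fresh ginger. Without fresh ginger low replicate 2 the count at an unadjusted p below 0.05 was 1435. The smallest adjusted p of the difference was 0.757. It belonged to SEC16B, a component of export sites of the endoplasmic reticulum, with -0.65 in fresh ginger and 0.96 in ginger at levels of 1.03 to 3.75 CPM. Its difference of 1.62 had an interval from 0.95 to 2.28. The interval of the difference between extracts lay within 1.5-fold for 70.1% of genes, and for 92.9% of those with at least 5 CPM.

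Across genes, the steps in the 2 extracts, which share no library, showed little relation. Over the 10770 genes with at least 5 CPM Pearson's r was 0.10 and Spearman's rho 0.09, and 53.6% of genes had the same sign. Over all 14663 genes these were -0.02, 0.05 and 52.7%. Genes are not independent replicates, and no p is given. The named genes lie where both values have the same sign because the rule required it.

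**Figure D4:**
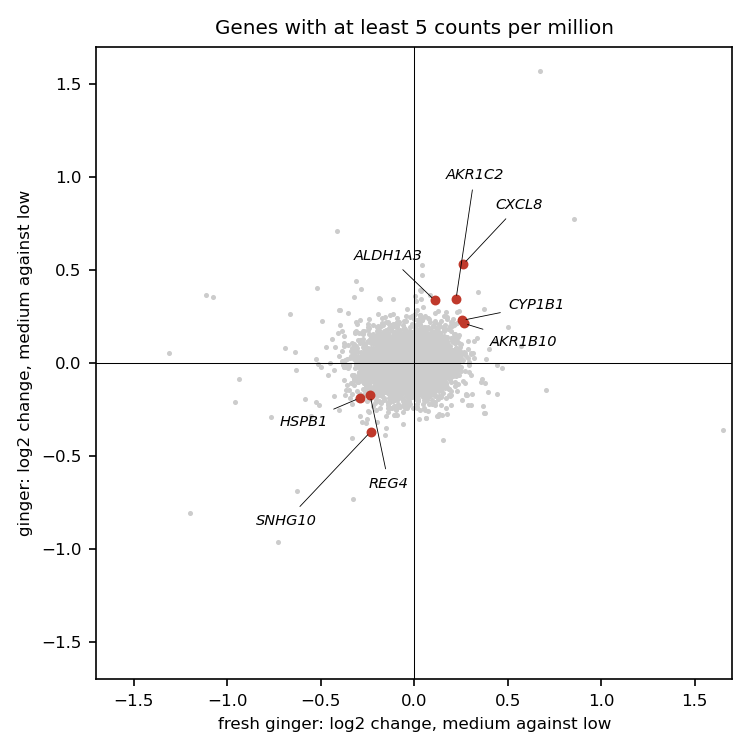
Fitted log2 change from low to medium dose in ginger (vertical axis) against that in fresh ginger (horizontal axis) for the 10770 genes with at least 5 CPM, 3 libraries per extract and dose; 8 genes described in the text are in red. The cloud is centred on 0 with Spearman's rho 0.09, and the red genes lie in the quadrants of like sign by the rule that chose them.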

How the data were processed

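Messenger RNA libraries from total RNA of HT29 cells (directional kit, 100 bp paired-end reads, per the labels' protocols) were used. The authors deposited expected counts for each gene. Per the submitters' processing notes, the tools named are RSEM 1.3.3, STAR 2.7.3a, FastQC 0.11.9 and Trim Galore 0.6.5, and the build is GRCh38 (hg38). The annotation release is not given in the sources used here. RSEM divides reads between genes, so 8.75% of values were not whole and were rounded. Of the table's columns, 210 belong to other samples and were not used. Symbols were found for 56558 of 60675 Ensembl genes in a table of gene names; positions are those of GENCODE 29.

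Counts of the 12 libraries (11.6 M to 30.5 M) were fitted in edgeR 4.0.16 (R 4.3.3; TMM, filterByExpr on dose, robust quasi-likelihood, extract plus dose), with Benjamini-Hochberg adjustment over 14663 genes and calls below 0.05. Single extracts and their difference came from a fit with 1 coefficient per group. Standard errors are fitted ones. CPM used TMM over 21 libraries. The fits were tested on simulated data. No pair of libraries agreed within sampling noise (smallest chi-square per gene 2.06). Between libraries of the same extract and dose the smallest was 3.64, so the closest pair came from different groups. Alternatives are listed in the closing section; DESeq2 was version 1.42.0.

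Named genes were, in each direction, the 12 with the smallest p among those of at least 5 CPM and of like sign in both extracts, since no gene was called; those without a symbol and pseudogenes were counted but not named. Up to 2 tested members of each list with the smallest p, and genes with the smallest p for the difference between extracts, were added. Further list members were named after their values were seen: SLC7A11, SRXN1, GCLM, GCLC, ALDH3A1, CYP1A1, BIRC3, CCL20, CREB3L1 and OAS2. The comparison, lists and printed windows were chosen with earlier results of these data known.

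Replicate numbers in the labels are shared between groups. After group means were removed, libraries of the same number correlated at 0.10 to 0.25 in fresh ginger, above 0.1 in all 3 pairs, the lowest at 0.1001. In ginger the correlations were -0.01 to 0.15. Across the extracts 6 of 12 pairs of the same number were above 0.1 (median 0.10), and 3 of 24 pairs of unlike number (median -0.05). The edgeR fits described first hold no term for the number, so their p-values, standard errors and intervals leave any such pairing out. Counts with the number as a block are given as alternatives.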

Additional observations from a re-analysis of the deposited data

Results flagged for a closer look

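Of 100 groups of 6 libraries checked for a value standing apart, 11 had one, where about 1 in 20, or 5, would be met in independent groups. These groups share the same 12 libraries and include genes named for their values in them, so the 5 is no chance level for the 11. A value counted when its gap to the nearest other, as a share of the group's range, passed Dixon's 95% critical value. Fresh ginger low replicate 1 gave 7 of the 11 values. It was the lowest low-dose library for TXNRD1 (308 CPM, the others 363 to 367) and the highest for HSPB1 (142 CPM, the others 107 to 117), CREB3L1 (220 CPM, the others 169 to 184), HIGD2A (73.5 CPM), HOXB8 (49.2 CPM), IDUA (13.8 CPM) and COX5B (98.4 CPM). Each of these genes had a fitted change of the same sign without that library.

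CXCL8 was lowest in fresh ginger low replicate 3, at 3.44 CPM where the other 5 low libraries held 4.48 to 5.08. SNHG10 was highest in fresh ginger medium replicate 1, at 6.65 CPM, and COX5B at the medium dose was highest in ginger medium replicate 1, at 69.2 CPM. The mitochondrial share of fresh ginger medium replicate 1 was 11.9%, beside 8.45% to 8.94% in the other 5.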

How the results depend on the processing

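The count of called genes stayed at 0 in the pooled comparison with DESeq2 size factors in edgeR, all 60 libraries, the 18 ginger libraries, no extract term, the mean of both within-extract contrasts, and each replicate number left out in turn (279 to 592 genes at an unadjusted p below 0.05). With no filter on low counts edgeR called 84 genes pooled, 126 in fresh ginger, 49 in ginger and 78 for the difference between extracts; the cause was not tested. The DESeq2 Wald test called 1 gene pooled and 1 in fresh ginger (ENSG00000196656). Leaving out each library in turn gave 0 to 1 pooled (ENSG00000258790 without fresh ginger low replicate 1), 0 to 1 in fresh ginger (ENSG00000196656 without low replicate 2, ENSG00000256569 without low replicate 3), and 0 to 0 in ginger and for the difference. The replicate block called 0 genes in each of the 4 comparisons (684 pooled, 775 as 6 pairs within extract, 973 in fresh ginger, 310 in ginger and 481 for the difference at an unadjusted p below 0.05), and 9 of 12 libraries were closest to their own number within the extract. Over 1097 alternative values of single genes, 1090 kept their side of the threshold and 7 crossed it to be called, with 0 reversed: AKR1B10 (DESeq2, no filter), and CYP1B1, CXCL8, HSPB1, ADGRF1 and SEC16B (no filter; SEC16B for the difference, 0.000251). The 95% interval of the pooled change lay within 1.5-fold for 89.2% of all genes and for 99.5% of those with at least 5 CPM. The part of depth in this was not tested.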

Other observations

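Of the programmes not described above, some had members mostly on the lower side. MHC class I genes had 1 of 11 above 0, against 50.6% of all genes, a median of -0.04 (-0.02 without fresh ginger low replicate 1) and 0 at an unadjusted p below 0.05. Host transcripts of small nucleolar RNAs had 3 of 12 above 0 and a median of -0.05 (-0.01 without that library). Tight junction genes had 0 higher and 2 lower of 13 at an unadjusted p below 0.05, against 1.51% and 1.92% of all genes, with a median of -0.01. None of the 22 genes of cholesterol synthesis and uptake, 18 chaperones of the endoplasmic reticulum, 19 ATF4 targets, 15 genes of hypoxia outside glycolysis, 24 genes of DNA replication or 15 mitochondrially encoded RNAs had an unadjusted p below 0.05 in the edgeR test, with list medians of 0.01, 0.02, 0.00, -0.02, 0.02 and 0.00. HK2, the hexokinase that starts glycolysis, was the only 1 of 19 tested genes of glucose uptake and glycolysis at that level, with means of 58.0 ± 3.32 and 63.2 ± 1.24 CPM (0.12). Replication-dependent histones had a median of -0.12 over 9 of 20 listed genes, and -0.04 without fresh ginger low replicate 1. NEAT1, a nuclear long non-coding RNA, was at 421 ± 22.5 and 435 ± 26.7 CPM at the low and medium dose, beside 338 ± 23 CPM in the 3 vehicle libraries, whose sample numbers carry another prefix. The titles of vehicle and ginger libraries share the label BatchA, but that prefix and the vehicle cannot be told apart.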
